A study of Zea mays with 32 samples.

Results

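In 29 maize genes, every library of the landraces Mushito and Palomero lay under each of 23 libraries of the other landraces. They were found in the deposited table of normalized counts, on log2(normalized count + 1). A gene was a member when its mean over 32 libraries was at least 20 and the highest of the 8 Mushito and Palomero libraries lay under the lowest of 23 other libraries. The rule leaves out 1 library of the other landraces, the fifth leaf replicate 1 of Reventador, and with it counted 28 genes met the rule. Of 39756 genes in the table, 24310 had such a mean and 29 (0.119%) met the rule. The reverse pattern, all 8 libraries above the other 23, held in 55 genes (0.226%). The members were thus chosen by these normalized counts, so the difference between Mushito with Palomero and the other 6 landraces is described below and not tested.

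The series profiled RNA of leaf primordia from 8 native landraces of maize (Zea mays), and its title places it in a study of vein density and photosynthesis. Beside Mushito and Palomero these were Gordo, Jala, Nal-tel, Reventador, Tabloncillo and Zapalote. Each gave 2 libraries of the fifth leaf and 2 of the ninth, harvested at plastochron stage 4. All groups share the growth temperature of 35 °C, which the labels call heat. Landraces are traditional farmer-kept varieties and are not genetically uniform. The labels do not say whether the 2 libraries of a group came from separate plants, or how many plants a library holds, so every p-value below measures only the spread between these libraries.

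A leaf primordium is the young organ that leaves the shoot meristem and lays down its veins before it unfolds. Plastochron stages count how many younger primordia have started since. Maize is a species whose varieties are known to differ in gene content and in regulatory sequence as well as in single bases, and transcript levels in the same organ differ between them for many genes. The deposited table gives gene IDs only. None could be paired with a name (0 of the 39756 IDs, and 0 of the members, matched the RefSeq table at hand), so the functions of the members, their positions and their sequences are not given here. The labelled tissue could not be checked against marker genes for the same reason. The libraries are bulk, so fewer cells of a type and less RNA per cell cannot be told apart.

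Recovered reads ran from 54.8 to 121.0 M per library (median 66.0 M). The 8 Mushito and Palomero libraries held between 54.8 and 75.2 M (median 60.2 M) and the others between 54.9 and 121.0 M (median 68.3 M). A pair of libraries stands apart where it touches the members. The fifth leaf replicate 1 of Reventador was left out of the 23 by the rule. In 61 genes with a normalized count of at least 100 in every Mushito library and at most 5 in both ninth leaf Reventador libraries, it stood at a median of 7.57% of the Mushito mean in the fifth leaf (interquartile range 5.86% to 11.2%), against 0.763% in the fifth leaf replicate 2 of Reventador. The fifth leaf replicate 1 of Palomero was the highest of the 4 Palomero libraries, or tied with them, in 17 of the 29 members. The share of all genes in which it was highest was not counted. The tie was Zm00001eb291010, at 0 in all 4. In 17 genes (7 of them members) with at most 5 in both ninth leaf Palomero libraries and at least 20 in each of the 23 others, it stood at a median of 3.99% of the others (from 0% to 19.9%), against 1.11% in the fifth leaf replicate 2 of Palomero. It lay above that replicate in 15 of the 17.

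Normalized counts are not per length, so levels are compared across libraries and not between genes. The members ranged from genes listed near 0 in Mushito and Palomero to genes that were abundant in all landraces and only somewhat lower there. Their mean over the 32 libraries ran from 21.2 to 50345 normalized counts, with a median of 311.3. A gene counted as being at the floor in a library that held at most 3 of its recovered reads. In 3 members all 8 Mushito and Palomero libraries were at the floor, in 11 some of them were, and in 15 none was. The 4 Mushito libraries were all at the floor in 6 members and the 4 Palomero libraries in 4. In 9 members the mean of the 8 low libraries was itself no higher than 3 reads per library would give (3.33 normalized counts), and against that floor they were at least 8.46-fold to at least 128-fold lower. In the other 20, the mean of the 23 others was between 1.42 and 104 times the mean of the 8, with a median of 6.91. Of these 20 members, 4 differed by less than 2-fold, 5 by 2- to 5-fold, 6 by 5- to 20-fold and 5 by more. In 8 members every Mushito and Palomero library still held at least 100 normalized counts. The intervening space between the groups (the lowest of the 23 minus the highest of the 8, log2 scale) was at least 2 in 8 members, from 1 to 2 in 6, from 0.5 to 1 in 4 and under 0.25 in 11.

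**Figure D1:**
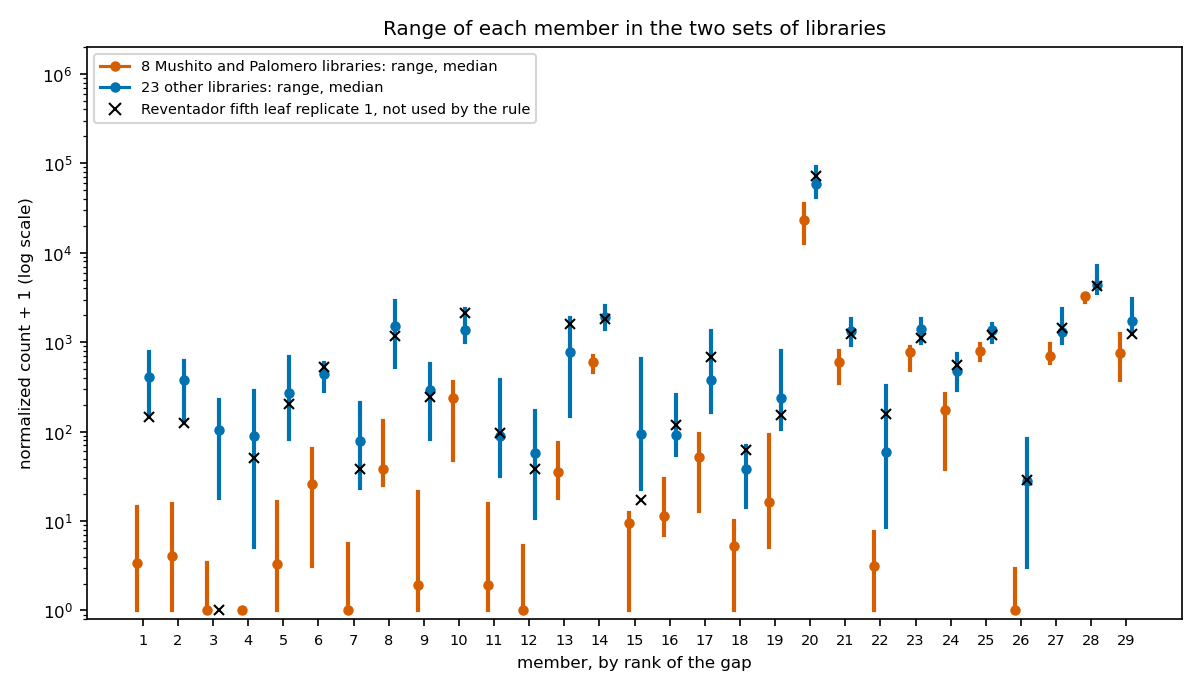
Range (line) and median (point) of the normalized count + 1 (log axis) for each of the 29 members, in the 8 Mushito and Palomero libraries (orange) and in 23 libraries of the other landraces (blue), with the Reventador library left out by the rule as a cross. Members are ordered by the space between the ranges, which narrows from 3.43 to 0.005 on the log2 scale, and the cross lies below the blue range in 4 members.

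The widest space was found in Zm00001eb282490. Its normalized counts in Mushito were 3.78 and 0 in the fifth leaf and 0 and 0 in the ninth. In Palomero they were 13.2 and 4.24 in the fifth leaf and 2.36 and 2.45 in the ninth. The 23 other libraries ran from 152.0 to 781.3, with a median of 406.8. Thus 3 of 4 Mushito libraries were at 0, and the highest low library, the fifth leaf replicate 1 of Palomero, lay 3.43 on the log2 scale under the lowest of the others, a Zapalote ninth leaf library. The mean was 3.26 ± 4.37 (SD, n = 8) in the low libraries and 425.8 ± 194.8 (SD, n = 23) in the others.

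The second widest space belonged to Zm00001eb059880. Mushito had 3.78 and 4.12 in the fifth leaf and 2.41 and 4.47 in the ninth. Palomero had 14.3 and 0 in the fifth leaf and 0 and 0 in the ninth. The others ran from 130.4 to 608.1 with a median of 376.4. Here Mushito kept a few reads in all 4 libraries, and Palomero was at 0 in all but the fifth leaf replicate 1. The mean was 3.64 ± 4.73 (SD, n = 8) in the low libraries against 379.5 ± 140.3 (SD, n = 23).

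Of the 3 members at the floor in all 8 libraries, the larger means were those of Zm00001eb124130 and Zm00001eb291010. Zm00001eb124130 was at 0 in 6 of the 8, at 2.41 in the ninth leaf replicate 1 of Mushito and at 1.10 in the fifth leaf replicate 1 of Palomero. In the others it ran from 17.1 to 222.8, with a median of 103.3. Against a floor of 3 reads per library it was at least 32.6-fold lower in the 8 libraries. Zm00001eb291010 was at 0 in all 8 and ran from 4.12 to 280.0 in the others, with a median of 89.3, which is at least 31.1-fold lower. The remaining one of the 3 was at least 8.46-fold lower. These bounds cover counting error only. They cover it less fully than 3 separate reads would, since mates of a read pair appear to be counted singly (between 76.7% and 87.0% of recovered values from 1 to 20 were even).

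The members of highest mean were of the other kind. Zm00001eb099930 held 35328 and 32011 normalized counts in the fifth leaf of Mushito and 24188 and 23820 in its ninth. In Palomero it held 15647 and 21365 in the fifth leaf and 12775 and 22557 in the ninth. The others ran from 41608 to 89942, with a median of 58959. It remained an abundant transcript in all 8 low libraries, at a mean of 23461 ± 7512 (SD, n = 8) against 58772 ± 12338 (SD, n = 23), a ratio of 2.51. Zm00001eb194200 held 3284, 3255, 2875 and 2814 in Mushito and 3390, 3494, 3310 and 3177 in Palomero (the fifth leaf first). The others ran from 3512 to 7179 with a median of 4306. Its ratio of 1.42 was the smallest of the 29.

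That gene was also just inside the rule: the fifth leaf replicate 2 of Palomero at 3494 lay 0.007 on the log2 scale under the ninth leaf replicate 2 of Reventador at 3512. The narrowest member, Zm00001eb189940, had its highest low library, the ninth leaf replicate 1 of Mushito, at 1220 and its lowest other library, the ninth leaf replicate 1 of Tabloncillo, at 1225, 0.005 apart. Just outside lay Zm00001eb097790, whose highest low library at 6895 passed the lowest of the others at 6799 (a space of -0.02), and Zm00001eb200740 with 934.5 against 890.5 (-0.07). A further 6 genes touched at 0: all 8 low libraries were at 0, and so were 17 to 20 of the 23 others. Membership at this edge therefore turned on single libraries, and with a space of at least 1 on the log2 scale 14 members were left.

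**Figure D2:**
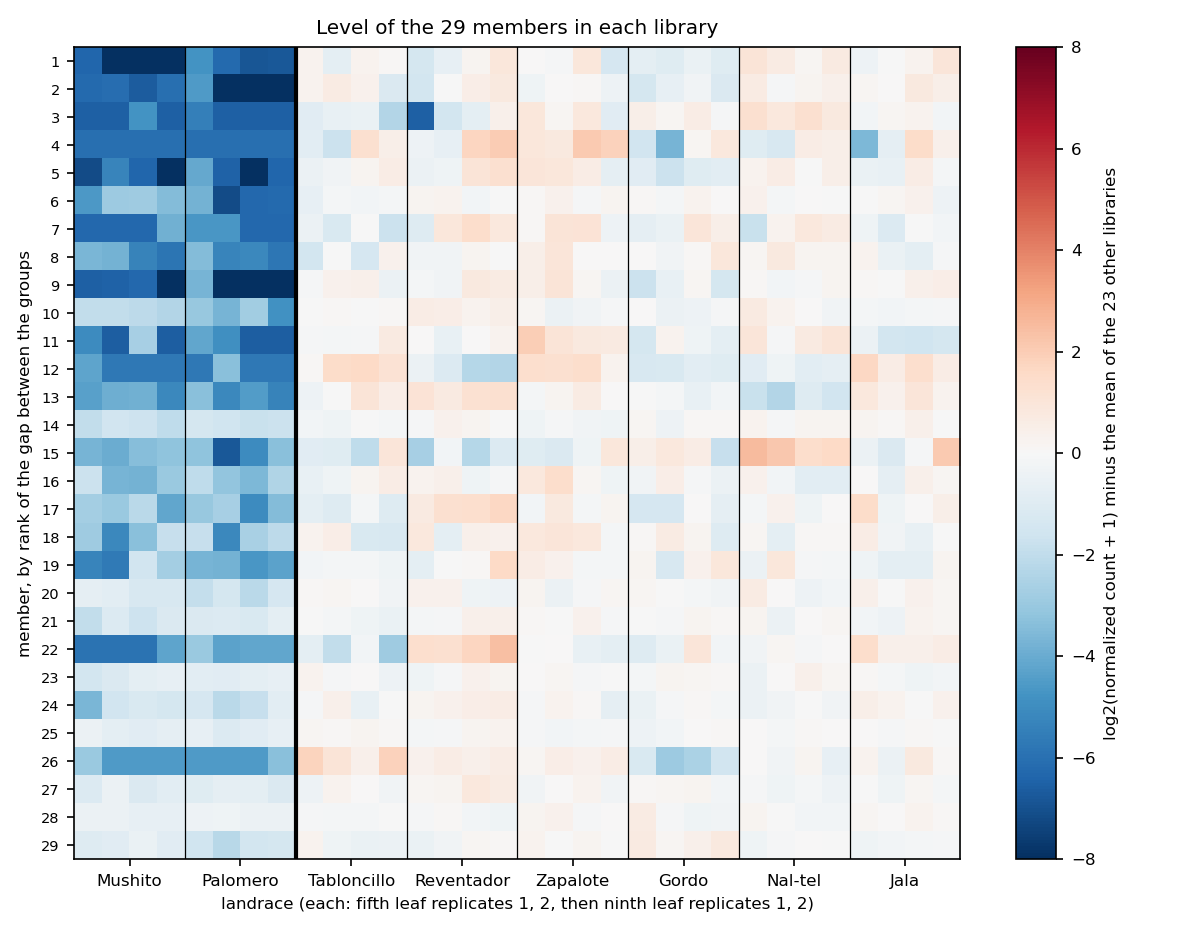
Level of each of the 29 members (rows, ordered by the space between the groups) in each of the 32 libraries (columns), as log2(normalized count + 1) minus the mean of the 23 other libraries. The 8 Mushito and Palomero columns are low throughout, and their medians over the members lie between -4.51 and -3.21, while those of the other columns lie between -0.24 and 0.42.

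Over the members, the median level of a library relative to the mean of the 23 ran from -3.89 to -3.36 on the log2 scale in the 4 Mushito libraries and from -4.51 to -3.21 in the 4 Palomero libraries. The least low Palomero library was the fifth leaf replicate 1, at -3.21, and the other 3 lay between -4.51 and -4.14. Libraries of the other 6 landraces lay between -0.24 and 0.42. The highest of the 8 low values came from that Palomero library in 8 of the 29 members, a count without a background. Without that library, 32 genes met the rule, and over the removal of each of 31 libraries in turn between 29 and 35 did. Removing a library can only widen the space, so the count could at most fall through the minimum mean.

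The Reventador library that the rule set aside gives values it did not use. In 25 of the 29 members it lay within or above the range of the 23, and in 4 it lay under their lowest. In Zm00001eb282490 it held 143.6, beside 247.7 in replicate 2 of the same leaf and 452.0 and 726.2 in the ninth leaf. In Zm00001eb059880 it held 123.7, beside 338.3 in the fifth leaf and 514.9 and 601.1 in the ninth. Both values were far above the highest Mushito or Palomero library. In Zm00001eb270720, named after its values were seen, it held 16.3 against a lowest of 22.0 in the 23. In Zm00001eb124130 it was at 0, beside 32.7, 53.9 and 123.1 in the other Reventador libraries, and so within the range of the low libraries. The part that its reads of genes otherwise high in Mushito play in these values was not tested.

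Mushito and Palomero were both required to be low, but the rule does not use the difference between them. Mushito had the higher mean in 16 of the 29 members, a count without a background, since it was not made over all genes. The median difference of Mushito minus Palomero was 0.09 on the log2 scale, against -0.01 over all 26156 genes tested. In limma, with Benjamini-Hochberg adjustment over those genes and a threshold of 0.05, 5 members differed between the landraces, 4 higher and 1 lower in Mushito. That is 17.2% of the members, while 1.75% of all genes tested were called (0.967% higher and 0.784% lower). In 3 members, all 4 Mushito libraries lay above all 4 Palomero libraries (10.3%, against 3.02% of genes tested), and in 0 members all lay below (2.89%). Over all genes tested, 5.91% had no overlap in either direction.

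Zm00001eb261530 had the smallest p. Its normalized counts were 359.2, 350.3, 330.4 and 279.2 in Mushito and 172.0, 103.9, 199.5 and 46.6 in Palomero (the fifth leaf first), with the others at 1009 or more. Every Mushito library lay above every Palomero library, and the mean was 329.8 ± 35.8 (SD, n = 4) against 130.5 ± 68.9 (SD, n = 4). The difference was 1.52 on the log2 scale (SE 0.28, limma adjusted p = 0.0054). It stayed past the threshold with each library left out, but ran from 1.00 without the ninth leaf replicate 2 of Palomero to 2.04 without the ninth leaf replicate 1 of Palomero.

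Zm00001eb132140 held 18.0, 59.8, 62.7 and 40.2 in Mushito and 31.97, 2.12, 4.72 and 4.91 in Palomero, with the others at 285.9 or more. The groups overlapped through the fifth leaf replicate 1 of Palomero, and the difference was 2.44 (SE 0.47, limma adjusted p = 0.00657). It was 1.59 without the fifth leaf replicate 2 of Palomero and 3.29 without its replicate 1, past the threshold in both cases. Zm00001eb189940 held 860.2, 950.0, 1220 and 953.8 in Mushito and 594.2, 375.5, 645.9 and 660.2 in Palomero, with no overlap (0.83, SE 0.16, limma adjusted p = 0.0081). It was not called without the fifth leaf replicate 2 of Palomero (limma adjusted p = 0.0679) or without the ninth leaf replicate 1 of Mushito (limma adjusted p = 0.0519).

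The other calls were close to the threshold. Zm00001eb099930, with the counts given above, was 0.69 higher in Mushito (SE 0.18, limma adjusted p = 0.0480), with no overlap. Zm00001eb282490 was the member lower in Mushito, with a difference of -1.88 (SE 0.47, limma adjusted p = 0.0460), a difference between 0 to 3.78 normalized counts in one landrace and 2.36 to 13.2 in the other. Its size depended on how values near 0 are scaled: it was -0.47 with a pseudocount of 10 (limma adjusted p = 0.653) and -4.13 with one of 0.1 (limma adjusted p = 0.00386). Each of these calls was lost in 24 of 32 fits with a library left out, with limma adjusted p up to 0.281 for the former and 0.206 for the latter. With each library left out in turn, between 2 and 4 members were called, beside 0.898% to 2.63% of all genes. There were 2 without the ninth leaf replicate 1 of Mushito. There were 3 without any other library of the ninth leaf of Mushito, Reventador, Gordo, Nal-tel or Jala, without the ninth leaf replicate 2 of Tabloncillo, the ninth leaf replicate 1 of Palomero, or the fifth leaf replicate 2 of Mushito or Palomero, and without either library of the fifth leaf of Gordo. With a spread estimated from the Mushito and Palomero libraries alone, limma called 0 members and 0.765% of all genes. There, 5 members had an unadjusted p under 0.05, but the share of all genes was not counted, so this count has no background. edgeR called 3 members and 1.41% of all genes.

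**Figure D3:**
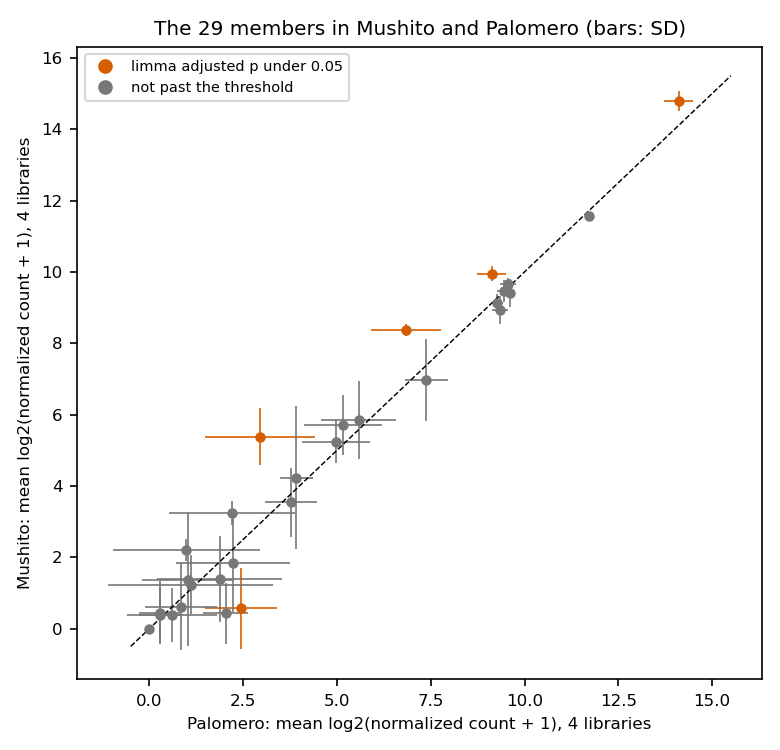
Mean log2(normalized count + 1) of each of the 29 members in Palomero (horizontal axis) and Mushito (vertical axis), with SD bars over 4 libraries per landrace, and the members with a limma adjusted p under 0.05 in orange. Points spread along the diagonal from 0 to the member at 28837 counts in Mushito and 18086 in Palomero, and the orange points lie to either side of it, 4 above and 1 below.

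The leaf was not used by the rule either. The ninth minus the fifth leaf, as the mean of the 8 landraces, was called in 3 members (10.3%), 1 higher and 2 lower in the ninth leaf, against 18.5% of all genes tested (9.39% higher and 9.08% lower). The median over the members was 0.02 on the log2 scale, against 0.00 over all genes. Library numbers in the labels run in separate blocks for the leaves, so such a block and the leaf cannot be told apart.

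Zm00001eb291010 was the member that rose. With both Mushito and Palomero at 0, its leaf difference is that of the other landraces. In the fifth leaf it held 36.4 and 19.4 in Tabloncillo, 49.0 and 41.5 in Reventador and 123 and 112 in Zapalote. Gordo had 21.7 and 4.12 there, Nal-tel 33.3 and 26.3, and Jala 4.51 and 39.5. In the ninth leaf the values were 163 and 89.3 in Tabloncillo, 219 and 275 in Reventador and 280.0 and 240.3 in Zapalote. Gordo had 72.01 and 117, Nal-tel 99.9 and 89.6, and Jala 180.3 and 88.2. Both ninth leaf libraries lay above both of the fifth leaf in 6 of 6 of these landraces. The rise was 1.69 over the 8 landraces (SE 0.27, limma adjusted p = 0.000203) and 2.26 over the 6 (SE 0.31, limma adjusted p = 0.000172). The Mushito and Palomero groups, all at 0, add no spread to the shared estimate, so these SEs and p-values are too small. A leaf fit on the other 6 landraces alone was not run. The mean over 8 landraces was not called by edgeR (adjusted p = 0.9999), where 2 of them hold no reads, while edgeR's value over the 6 was called (adjusted p = 0.000766).

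The members that fell were those of highest mean. Zm00001eb194200 fell by 0.21 (SE 0.06, limma adjusted p = 0.0121), with both ninth leaf libraries below both of the fifth leaf in 6 of 8 landraces. Zm00001eb099930 fell by 0.29 (SE 0.09, limma adjusted p = 0.0267), with such an order in 5 of 8. The latter was not called after quantile normalization (limma adjusted p = 0.255), nor in 5 of 32 fits with a library left out (adjusted p up to 0.0544), those without replicate 1 of the fifth leaf of Jala or Nal-tel, the fifth leaf replicate 2 of Palomero, or the ninth leaf replicate 1 of Nal-tel or Palomero.

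The leaf difference itself was compared between Mushito with Palomero and the other 6 landraces. In limma 0 members passed and 9 had an unadjusted p under 0.05, and over all genes 2 were called (0.00765%). edgeR called 0 members, with 8 at an unadjusted p under 0.05, and 6 of all genes (0.0229%). DESeq2 called 1, Zm00001eb074080, with a difference of -1.62 (adjusted p = 0.0370), and 263 of all genes (1.01%). The share of all genes with an unadjusted p under 0.05 was not counted, so these counts of 9 and 8 members have no background. The median difference over the members was -0.23, against 0.00 over all genes. Values near 0 leave little room for a leaf difference on this scale in the low landraces.

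Within the low pair, the leaf difference was called in 2 members (6.9%), against 7.5% of all genes (4.27% higher and 3.23% lower). Zm00001eb074080 held 116 and 103 in the fifth leaf of Mushito and 35.0 and 24.6 in its ninth, and 129 and 36.1 in the fifth leaf of Palomero and 39.0 and 25.8 in its ninth. In the ninth leaf it fell by 1.48 (SE 0.38, limma adjusted p = 0.0236), and the other 6 landraces differed by 0.00 (SE 0.22). Of the pair, Mushito had both ninth leaf libraries below both of the fifth leaf and Palomero did not. The fall was not called in 4 of 32 fits with a library left out: without the fifth leaf replicate 1 of Palomero (limma adjusted p = 0.125) or of Mushito, or without the ninth leaf replicate 2 of either. Zm00001eb265990 rose by 1.32 (SE 0.39, limma adjusted p = 0.0450), a call lost in 17 of 32 fits with a library left out (adjusted p up to 0.184, without the ninth leaf replicate 1 of Mushito). The landraces of the pair went opposite ways: Mushito held 5.67 and 4.12 in the fifth leaf and 90.5 and 38.0 in the ninth, while Palomero had 18.7 and 18.0 in the former leaf and 9.45 and 12.3 in the latter. Within the other 6 landraces 2 members were called (6.9%, against 8.98% of all genes, 4.84% higher and 4.14% lower), namely Zm00001eb291010 and Zm00001eb194200, the latter at -0.23 (limma adjusted p = 0.0283, and up to 0.0582 in 9 of 32 fits with a library left out that lost the call).

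The 6 landraces in which the members were not low were compared with each other. A moderated F-test in limma for equal means of the 6 was called in 11 members (37.9%), beside 35.8% of all genes tested. The rule does not order the 6, but it required their 23 libraries to lie above the low pair. Their lowest values are thus bounded from below, unlike those of all genes, so nothing is concluded from how these shares compare. Leaving out each library in turn gave between 7 and 13 members, beside 29.7% to 38% of all genes. There were 7 without the ninth leaf replicate 1 of Reventador or of Nal-tel. That test used all 4 libraries of each landrace. The landrace means described next, of log2 values, leave out the fifth leaf replicate 1 of Reventador, and the order with it counted was not tallied. Between the highest and the lowest of these 6 means lay between 0.29 and 3.32 on the log2 scale, with a median of 1.06. The highest was Reventador in 13 members, Zapalote in 7, Tabloncillo and Nal-tel in 3 each, Jala in 2 and Gordo in 1. The lowest was Tabloncillo or Gordo in 8 members each. Such ranks were not counted over all genes, so these counts have no background.

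Zm00001eb213190 had the smallest p (limma adjusted p = 7.1e-05). Its normalized counts in Nal-tel were 213 and 147 in the fifth leaf and 362.3 and 256.3 in the ninth, while Reventador reached 1597 and 1238 in the former leaf and 1760 and 1848 in the latter. Tabloncillo lay between 571.9 and 1531, Zapalote between 673.2 and 1189, Gordo between 494.3 and 732.5 and Jala between 913.4 and 1460. Nal-tel was thus the lowest of the 6 with no overlap. Mushito, at 20.1 to 50.6, and Palomero, at 17.2 to 72.8, lay below it.

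Zm00001eb180230 came next (limma adjusted p = 0.000386). Reventador held 37.4 and 24.01 in the fifth leaf and 9.98 and 9.70 in the ninth, Gordo between 20.6 and 29.2 and Nal-tel between 27.7 and 41.6. Zapalote lay between 63.7 and 143.4, Tabloncillo between 56.0 and 161.9 and Jala between 80.4 and 168.1. Reventador, which had the highest mean in Zm00001eb213190, overlapped Gordo and Nal-tel here and lay under Zapalote, Tabloncillo and Jala. Mushito had 1.89 in 1 library and 0 in 3, and Palomero 4.24 in 1 and 0 in 3.

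**Figure D4:**
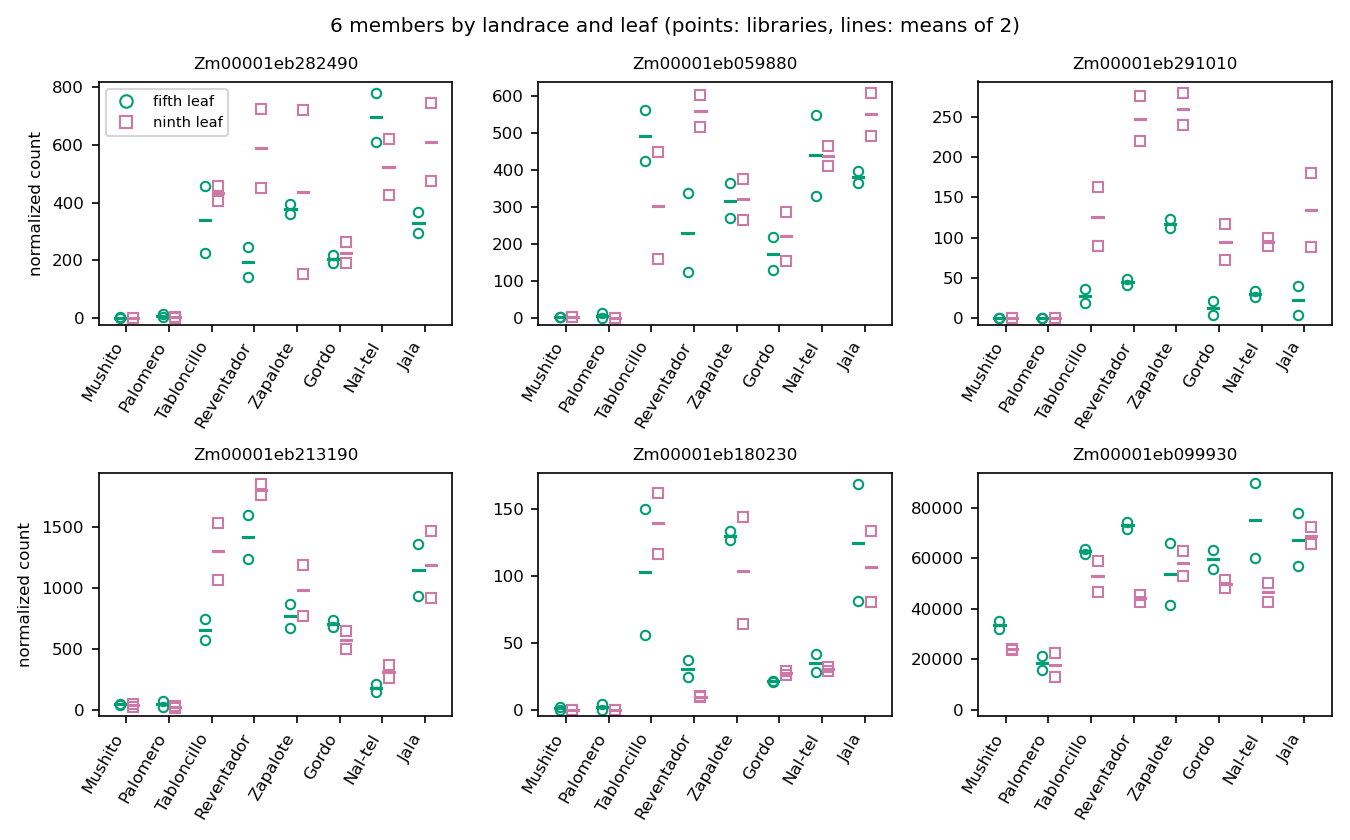
Normalized counts of 6 members in the 4 libraries of each of the 8 landraces, with circles for the fifth leaf, squares for the ninth leaf and a line at the mean of 2 libraries. Mushito and Palomero are low in all 6 panels, at 0 for Zm00001eb291010, and the order of the other landraces changes from panel to panel, with Nal-tel the lowest of them for Zm00001eb213190.

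The order of the table's rows gives a further description. In 2 cases members sit in adjacent rows. Zm00001eb059880 is followed by Zm00001eb059890, which ran from 0 to 19.8 in the low libraries and from 81.5 to 563.9 in the others. Zm00001eb282490 is followed by Zm00001eb282500, which ran from 0 to 15.4 in the low libraries and from 82.4 to 682.6 in the others. Over the 23 other libraries, where neither gene of a pair was low, their log2 values correlated with r = 0.807 and rho = 0.704 in the former pair and r = 0.709 and rho = 0.644 in the latter. These are descriptions over libraries that share landrace, leaf and depth. Whether reads could be split between adjacent genes was not tested.

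A further 6 members, Zm00001eb189940 and Zm00001eb194200 among them, sat within 592 consecutive rows, 1.49% of the table and 20.7% of the members. The stretch was chosen after the values were seen. Genome positions were not at hand, so how row order relates to them was not tested.

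Of the rows near members, some went the same way, some differed little and some went the opposite way. Zm00001eb223960, in the row before the member Zm00001eb223970, was low as well. It held a mean of 4.16 in the 8 low libraries and 110 in the others, but its groups overlapped (a space of -0.28). Zm00001eb059900, in the row after the member Zm00001eb059890, differed little, with 3116 in the low libraries and 3013 in the others. Close to the member Zm00001eb341910 (1.10 against 93.4) stood Zm00001eb341920, with 456 in the low libraries and 64.0 in the others, and Zm00001eb341950, with 514 and 17.2. These neighbours were named after their values were seen.

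Outside the 29, the gene most like Zm00001eb282490 over the 16 group means of log2 values was Zm00001eb191110 (r = 0.932). It ran from 0 to 1.10 in the low libraries and from 0 to 99.8 in the 23 others, so it failed the rule through other libraries at 0. Most like Zm00001eb059880 was Zm00001eb297880 (r = 0.948), with 0 to 106 in the low libraries and 50.6 to 1089 in the others. The group means share their landraces and normalization, and the correlations are descriptions.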

How the data were processed

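Poly(A) RNA of 32 leaf primordium libraries was measured by directional RNA sequencing, per the labels' protocols. The deposited values are a signal: read counts per gene that the authors scaled by 1 factor per library. The submitters' processing notes name STAR, featureCounts and DESeq2. The genome build and annotation are not given in the sources used here. Every value was a whole multiple of 1 step per library (100% at a tolerance of 0.01 of a step), and dividing by that step gave whole reads. That step was close to 1 in 2 libraries, replicate 2 of the ninth leaf of Gordo and replicate 1 of the ninth leaf of Reventador.

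R 4.3.3 with limma 3.58.1 tested 26156 genes whose mean was 10 or more, as log2(normalized count + 1), a scale that understates changes of low genes. The fit held 16 group means (landrace by leaf) and 1 residual spread from all 32 libraries, with eBayes, an intensity trend and Benjamini-Hochberg adjustment at 0.05. All 29 members passed this filter, since their own rule is stricter. Alternatives included edgeR 4.0.16 and DESeq2 1.42.0 on recovered reads. The scripts were tested on simulated data. Python 3.11.15, numpy 2.4.6, pandas 2.3.3, scipy 1.17.1 and matplotlib 3.10.9 did the rest.

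The members, the comparisons and the rule for named genes were chosen with earlier results of these data known. With no names at hand, the named genes are the 2 members of widest space, of highest mean, just inside and at the floor with the largest mean, and the 2 genes just outside. Per test the 2 called members of smallest p in each direction were added, and for the F-test the 2 of smallest p. For Mushito against Palomero, and for the leaf within each side, all called members are named, a wider choice than planned. Other IDs are named where a small count called for it. No gene list could be tested.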

Additional observations from a re-analysis of the deposited data

Results flagged for a closer look

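In 1 of 19 groups of libraries examined (8 landraces by the median level of the members, and 11 named members over the 8 Mushito and Palomero libraries), a single library stood far from the rest. The ninth leaf replicate 1 of Gordo had a median member level of 0.0988 on the log2 scale relative to the mean of the 23 other libraries, while the other 3 Gordo libraries lay between -0.22 and -0.18. Chance alone flags about 1 in 20 groups drawn from a single normal spread. The groups of the 11 named members mix landraces and leaves and hold values at 0, so that rate need not hold there. Zm00001eb291010, at 0 in all 8 libraries, could not be flagged.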

How the results depend on the processing

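The rule returned 29 genes. It returned 14 with a space of at least 1 on the log2 scale, 150 from libraries of the fifth leaf only and 127 from ninth leaf libraries only (both containing all 29), and between 29 and 35 with each library left out in turn. Dropping libraries cannot narrow the space between the groups, so members could at most be lost there through the minimum mean, and their return is no test. Other means, scalings and the full 24 libraries gave between 27 and 31. Members at the floor numbered 3, and 8 with a floor of 10 reads, an alternative chosen after seeing the data. For the leaf, 3 members were called, beside 18.5% of all genes. Without the landrace Tabloncillo (also chosen after seeing the data) 5 were called, beside 21.9% of all genes. With each library left out 2 to 4 were called, beside 15.3% to 20.7% of all genes. The leaf difference between the low pair and the other 6 landraces called 0 members and 1 in DESeq2 (with 1.01% of all genes). It called 0 with each library left out (with 0% to 0.264% of all genes). Mushito against Palomero called 5 members, 3 with a mean of at least 50, 0 with only the libraries compared, 3 in edgeR and 2 to 4 with each library left out. Among the other 6 landraces 11 members were called (beside 35.8% of all genes), and 7 to 13 with each library left out (29.7% to 38%). The cause of these shifts was not tested. Of 598 values of named members under the alternatives, 105 lost their call and 0 reversed. Between Mushito and Palomero, Zm00001eb099930 was called in 13 of 43 settings and Zm00001eb282490 in 14.

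Replicate numbers showed little pairing of the libraries across leaves: deviations of same-numbered libraries from their group means correlated from -0.175 to 0.112 over 8 landraces, with 1 above 0.1. These values cannot tell whether same-numbered libraries share a plant or a batch. With the replicate number as a block, limma called 3 members for the leaf, beside 18.3% of all genes. It called 0 for its difference between the low pair and the rest (0.00765%). For Mushito against Palomero 4 were called (1.75%), and among the other 6 landraces 11 (35.7%). Within the low pair limma called 1 member for the leaf (7.64%), where 2 were called without the block (7.5%). The rise of Zm00001eb265990 was lost with it (limma adjusted p = 0.0502).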
